A study of Mus musculus with 7 samples.

Results

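A set of 10 genes, of 18027 genes tested, covers the handling of stored and circulating fat: Pnpla2, Lipe, Mgll, Abhd5, G0s2, Lpl, Gpihbp1, Cd36, Fabp4 and Fabp1. They were taken by name, as all probes whose transcript accession maps to these symbols, which gave 16 probes. All 10 genes passed the filter on dim probes and were well above background on 7 of 7 arrays, as were 15342 of all genes tested. The set was chosen by biological role, with the differences in processed signal between these same groups already known. Its levels and differences are therefore given as a description, with no p-value and no call for any of the 10 genes.

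Fat stored in a lipid droplet is broken down in steps, each removing a fatty acid from the glycerol backbone. Adipocytes are the main site of this breakdown, while hepatocytes take up and bind fatty acids. Fat that circulates in lipoproteins is cut at the capillary wall, and the freed fatty acids are then taken up and carried inside cells by binding proteins.

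The arrays held RNA of mouse cells sorted from dorsal skin at postnatal day 15, which the labels call dermal sheath cells, the mesenchymal layer around the hair follicle. The sort kept cells positive for YFP, a fluorescent reporter, and negative for CD34, alkaline phosphatase (ALP) and integrin α8 (ITGα8) in both groups. The group of β-catenin activation, labelled cΔex3, had 4 arrays from 6 mice (2 mice pooled on array 2 and 2 on array 3). The 3 arrays labelled control came from 4 mice, 2 of them pooled on array 3. The driver of the allele and of the reporter, the strain and the control genotype are not given in the sources used here. Arrays of a group are replicates from different mice, so the spread between them includes that between animals, and the number of arrays limits the precision.

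The marker genes did not match the labelled cell type alone. The 10 hepatocyte markers summed to 10.1 to 38.4 times the array's 75th percentile on the cΔex3 arrays and to 3540 to 4712 times on the control arrays. The 9 adipocyte markers summed to 519.6 to 1092 times on the cΔex3 arrays, against 6.36 to 34.8 times on the control arrays. The 10 dermal sheath markers summed to 102.9 to 222 times on the cΔex3 arrays and to 24.8 to 35.8 times on the control arrays. Of these, 9 to 10 were well above background on each cΔex3 array and 8 to 9 on each control array, Acta2 (smooth muscle actin) and Tagln (transgelin) on all 7. Of all spots, 69.0% to 82.7% were so on the cΔex3 arrays and 69.3% to 71.5% on the control arrays, so these counts do not set the markers apart. Their median lay at percentile 71.1 to 80.6 of genes tested on the cΔex3 arrays and 46.9 to 51.1 on the control arrays. The hepatocyte median lay at percentile 99.6 to 99.7 on the control arrays. Transcripts of the proteins the sort selected against were also well above background on 7 of 7 arrays, as were 15342 of the 18027 genes tested. Cd34 was at 5.61, 5.59, 5.64 and 4.72 (log2 relative to the 75th percentile) on the cΔex3 arrays and 0.61, 0.12 and 0.94 on the control arrays, a difference of 4.84 ± 0.31 (SE; limma, adjusted p = 4.49e-05). Its transcript was thus present in both groups labelled CD34-negative, at the higher level on the cΔex3 arrays. The label refers to protein, which RNA does not measure. Alpl, which encodes an alkaline phosphatase, averaged 0.70 ± 1.90 on the cΔex3 arrays and 1.97 ± 0.46 on the control arrays (SD, n = 4 and 3), and Itga8 averaged −0.91 ± 1.16 and −0.14 ± 0.30, neither past the threshold. Groups are called by their labels throughout, and fewer cells of a type cannot be told apart from less RNA per cell. An array's processed signal had its 75th percentile at 1348 to 2160 on the cΔex3 arrays and 756 to 907 on the control arrays, and 0 spots were saturated.

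The stretch upstream of the start was available for 7 of the 10 genes (RefSeq, GRCm38.p6). Fabp1, which stood lower on the cΔex3 arrays, is shown beside Pnpla2 and Cd36, which stood higher, as examples of both directions. Each line gives the 250 bases before the start, 5′ to 3′ on the gene's strand, and capitals mark the motif matches named after it.
Fabp1: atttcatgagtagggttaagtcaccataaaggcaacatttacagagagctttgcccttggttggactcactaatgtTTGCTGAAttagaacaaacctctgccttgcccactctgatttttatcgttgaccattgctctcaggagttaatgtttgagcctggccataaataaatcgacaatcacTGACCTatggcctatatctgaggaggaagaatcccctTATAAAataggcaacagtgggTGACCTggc
Pnpla2: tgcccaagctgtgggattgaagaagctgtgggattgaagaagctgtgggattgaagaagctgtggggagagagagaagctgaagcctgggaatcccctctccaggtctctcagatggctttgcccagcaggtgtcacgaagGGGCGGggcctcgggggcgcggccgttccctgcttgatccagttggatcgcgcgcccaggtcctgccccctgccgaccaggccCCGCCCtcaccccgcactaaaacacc
Cd36: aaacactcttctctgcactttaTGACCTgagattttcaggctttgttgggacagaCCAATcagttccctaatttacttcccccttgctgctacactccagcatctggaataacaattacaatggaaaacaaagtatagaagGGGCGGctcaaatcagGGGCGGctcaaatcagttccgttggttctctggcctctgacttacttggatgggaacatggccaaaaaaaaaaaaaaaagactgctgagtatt
The Fabp1 stretch lies at chr6:71199629-71199878 on the + strand, the Pnpla2 stretch at chr7:141454938-141455187 on the + strand and the Cd36 stretch at chr5:17835897-17836146 on the − strand. Exact letters were searched on both strands: AGGTCA, the half-site of many nuclear receptors; TATAAA, the TATA box; CCAAT, the CCAAT box; GGGCGG, the GC box of Sp1; and TTGCNNAA, a C/EBP-type site. None of these contains another. The Fabp1 stretch held the half-site on the opposite strand 67 and 9 bases before the start, a TATA box 30 bases before it and a C/EBP-type site 174 bases before it. The Pnpla2 stretch held 2 GC boxes, and the Cd36 stretch held 2 GC boxes, a CCAAT box and a half-site. Among 32851 mouse promoter windows of this length, 14% held the half-site, 12.4% the TATA box, 33.8% the CCAAT box, 32.7% the GC box and 9.56% the C/EBP-type site. Base composition differed as well, at 42.8% G and C for Fabp1, 63.2% for Pnpla2 and 43.2% for Cd36. A match is a description of letters and was not tested as a binding site.

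Levels below are log2 of the processed signal relative to the array's 75th percentile, so that 0 equals that percentile, and each is read on 1 probe, the brightest of the gene. Levels of different genes are not set against each other. Differences are cΔex3 minus control on the log2 scale, with the SE from limma's fit over all 18027 genes (n = 4 and 3). At limma's threshold (adjusted p under 0.05), 24% of all genes tested were called higher and 29.1% lower, 53.1% in all. The 10 genes were chosen with this comparison known, so their own number past it, 7 higher and 1 lower, is no evidence and nothing is read from it. Their median difference was 1.89, where the median of all genes tested was −0.08.

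Of the lipases of the droplet, Pnpla2 and Lipe stood higher on every cΔex3 array than on any control array, and Mgll overlapped. Pnpla2 encodes adipose triglyceride lipase, which takes the first fatty acid from a triglyceride. Its level was 7.19, 7.38, 7.52 and 6.27 on cΔex3 arrays 1 to 4, against 4.99, 5.26 and 5.08 on control arrays 1 to 3. Every cΔex3 array lay above every control array, with array 4 nearest to them, and the difference was 1.99 ± 0.32 (SE), or 3.96-fold. Lipe encodes hormone-sensitive lipase, which cuts diacylglycerol. Its level was 2.50, 3.02, 2.89 and 1.01 on the cΔex3 arrays and −2.90, −2.60 and −1.95 on the control arrays. The groups did not overlap, and the difference of 4.84 ± 0.52 (SE) is 28.6-fold. Mgll encodes monoacylglycerol lipase, which releases the last fatty acid and also degrades an endocannabinoid. Its level was 6.20, 6.88, 7.21 and 5.90 on the cΔex3 arrays, against 5.12, 5.53 and 5.94 on the control arrays. cΔex3 array 4 fell just under control array 3, so the groups overlapped, and the difference was 1.02 ± 0.37 (SE). The other 3 Mgll probes gave differences of 1.05, 1.22 and 1.08, all with overlap. On the dimmest of them cΔex3 array 4 was the highest of its group rather than the lowest.

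The regulators of Pnpla2 differed less. Abhd5 encodes CGI-58, the co-activator that Pnpla2 needs for full activity. Its level was 2.94, 2.97, 2.70 and 1.78 on the cΔex3 arrays and 1.79, 1.41 and 1.70 on the control arrays. cΔex3 array 4 lay just below control array 1, and the difference was 0.96 ± 0.32 (SE). Of its other probes, 1 differed by 1.34 with no overlap and 1 by 1.28 with overlap. Without cΔex3 array 4 the difference was 1.24, and without any other single array it was 0.84 to 1.04. G0s2 encodes a small inhibitor that binds Pnpla2. Its level was 3.44, 4.38, 3.91 and 1.80 on the cΔex3 arrays, against 3.38, 4.44 and 3.22 on the control arrays. The ranges lay across each other, and the difference of −0.30 ± 0.64 (SE) was smaller than the spread between arrays. The G0s2 difference turned positive without cΔex3 array 4 (0.23) or without control array 2 (0.09).

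At the capillary wall, the enzyme and its anchor both stood higher, the enzyme by far more. Lpl encodes lipoprotein lipase, which is made by adipocytes and muscle and frees fatty acids from circulating triglyceride. Its level was 7.41, 7.47, 8.03 and 6.30 on the cΔex3 arrays and 2.26, 1.31 and 2.98 on the control arrays. The gap between the lowest cΔex3 array and the highest control array was wider than the range within either group, and the difference was 5.12 ± 0.52 (SE), or 34.7-fold. A further Lpl probe differed by 5.64 ± 0.55 (SE from a limma fit over probes rather than genes), also without overlap. Gpihbp1 encodes the endothelial protein that carries lipoprotein lipase to the capillary lumen. Its level was 4.54, 5.60, 5.35 and 3.49 on the cΔex3 arrays, against 2.84, 2.87 and 3.12 on the control arrays. The groups did not overlap, but cΔex3 array 4 stood close to the control arrays, and the difference was 1.80 ± 0.50 (SE), or 3.48-fold.

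The 2 binding protein genes had the largest increase and the largest decrease of the 10, with the uptake gene Cd36 between them. Cd36 encodes a fatty acid translocase of adipocytes, capillary endothelium, muscle and macrophages. Its level was 5.17, 5.70, 6.02 and 3.92 on the cΔex3 arrays, against 1.71, 1.03 and 2.59 on the control arrays. Every cΔex3 array lay above every control array, and the difference was 3.42 ± 0.58 (SE). Fabp4 encodes the fatty acid binding protein of adipocytes, also found in capillary endothelium and macrophages. Its level was 8.16, 8.60, 8.36 and 7.60 on the cΔex3 arrays and 2.63, 2.09 and 2.86 on the control arrays. It varied least within the cΔex3 group of the 10 genes (SD 0.43), and its difference of 5.66 ± 0.30 (SE), or 50.4-fold, was the largest increase among the 10. Fabp1 encodes the fatty acid binding protein of hepatocytes and enterocytes. Its level was −0.95, 2.95, 1.74 and 2.56 on the cΔex3 arrays, against 9.43, 9.31 and 9.06 on the control arrays. The groups lay far apart, and the difference was −7.69 ± 0.89 (SE), 207-fold lower on the cΔex3 arrays. Fabp1 was also the most variable of the 10 within the cΔex3 group (SD 1.76), where its signal spanned 15.0-fold, while it spanned 1.30-fold among the control arrays.

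**Figure D1:**
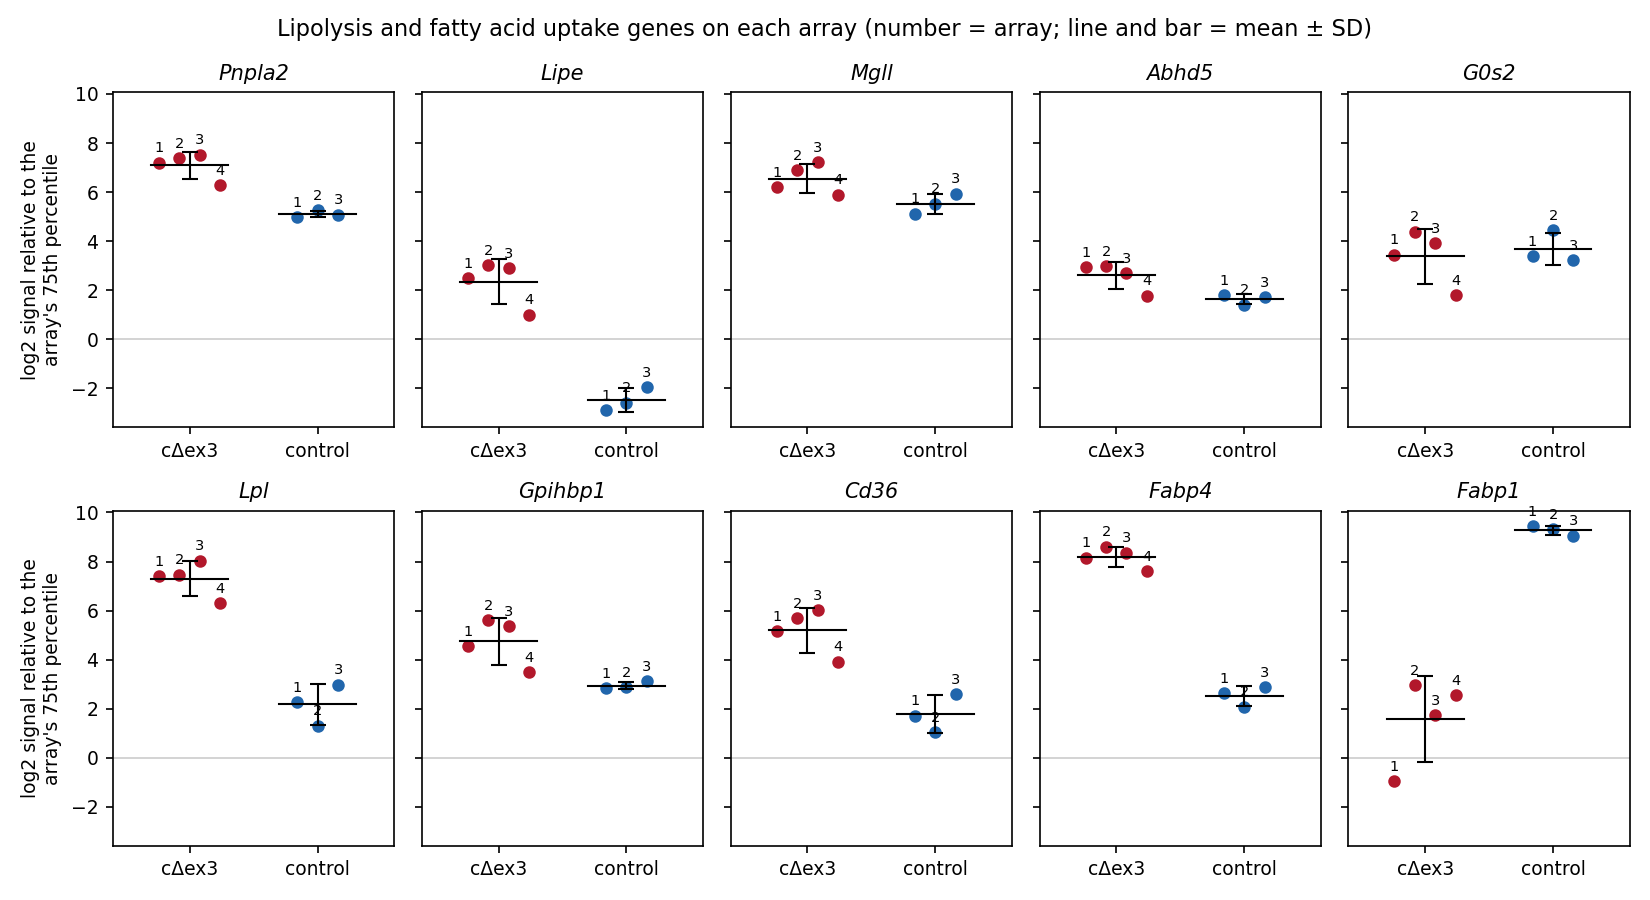
Level of each of the 10 genes on each array (y axis, log2 processed signal relative to the array's 75th percentile), with cΔex3 arrays in red and control arrays in blue, numbered by array; line and bar give the group's mean ± SD. The groups do not overlap for Pnpla2, Lipe, Lpl, Gpihbp1, Cd36 and Fabp4 (cΔex3 higher) and Fabp1 (cΔex3 lower), and they overlap for Mgll, Abhd5 and G0s2.

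Without overlap between the arrays of the groups stood 6 genes higher and 1 lower, where 26.1% of all genes tested lay so in the higher and 32.6% in the lower direction. Ordered by difference, Fabp4 came first, then Lpl, Lipe, Cd36, Pnpla2, Gpihbp1, Mgll, Abhd5, G0s2 and last Fabp1. Several neighbours in that order lay within their errors of each other. Lpl and Lipe were apart by less than the SE of either, as were Pnpla2 and Gpihbp1, and Mgll and Abhd5. The difference placed Fabp4 at the 98.7th percentile of all genes tested and Fabp1 at the 1.35th.

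Differences within the pathway were also taken array by array, for 7 pairs of genes. Their SE is the ordinary pooled SE of the per-array differences, not the SE from limma's fit. Lipe differed by 2.85 ± 0.33 (SE) more than Pnpla2 and by 3.82 ± 0.32 (SE) more than Mgll. Pnpla2 differed by 2.28 ± 0.44 (SE) more than its inhibitor gene G0s2, and the co-activator gene Abhd5 by 1.26 ± 0.56 (SE) more than G0s2. Lpl differed by 3.32 ± 0.45 (SE) more than Gpihbp1. Fabp4 differed by 2.24 ± 0.38 (SE) more than Cd36 and by 13.35 ± 1.09 (SE) more than Fabp1. The scaling by the 75th percentile cancels in these contrasts, because it is a single factor per array.

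**Figure D2:**
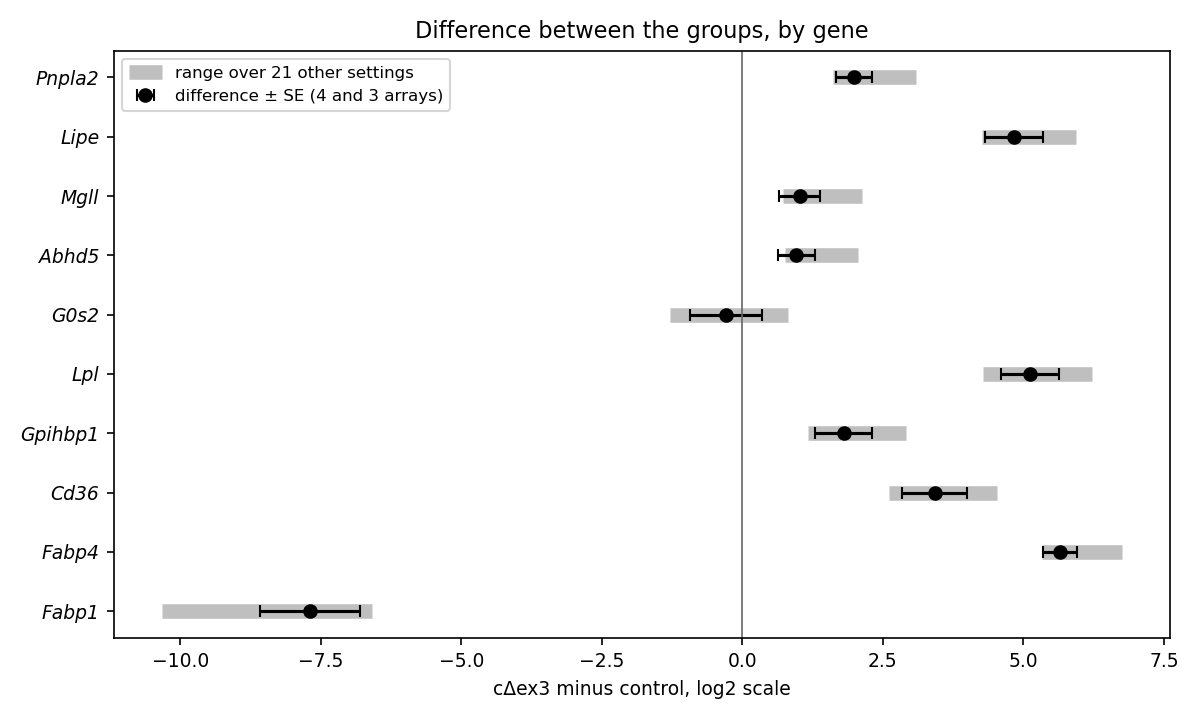
Difference of each gene, cΔex3 minus control, on the log2 scale (black point, bar = SE from limma, 4 and 3 arrays), with the grey band spanning its lowest and highest value over 21 other settings. Bands lie right of 0 for Pnpla2, Lipe, Mgll, Abhd5, Lpl, Gpihbp1, Cd36 and Fabp4 and left of it for Fabp1; that of G0s2 runs across 0, from −1.29 to 0.81.

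Within the cΔex3 group array 4 was the lowest for 9 of the 10 genes, and array 1 was the lowest for Fabp1. The shares of all genes tested that were lowest or highest on each array were not computed. The order is therefore not shown to be particular to this set. Outside it, Cavin1, Pecam1 and Adgre1 were also lowest on array 4 of the group, while Acta2 and Alb were not. The count for array 4 was 9 of 10 with each of 5 other ways of computing the values (median scaling, no scaling, quantile normalisation, normexp and the deposited series values). Array 2 was the highest for 6 genes and array 3 for 4, the arrays on which 2 mice were pooled, and likewise with median scaling and normexp. The highest array depended on the scaling: without scaling array 2 was the highest for 1 gene, array 3 for 7 and arrays 1 and 4 for 1 each, and with quantile normalisation or the deposited series values array 2 was the highest for 4, array 3 for 5 and array 1 for 1. Over those 9 genes, array 4 deviated from its group's mean by −0.58 for Fabp4 at the least and −1.58 for G0s2 at the most. Within the control group array 3 was the highest for 6 genes, namely Lipe, Mgll, Lpl, Gpihbp1, Cd36 and Fabp4. There Lpl deviated by 0.80 and Cd36 by 0.82 on array 3, and by −0.88 and −0.75 on array 2.

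**Figure D3:**
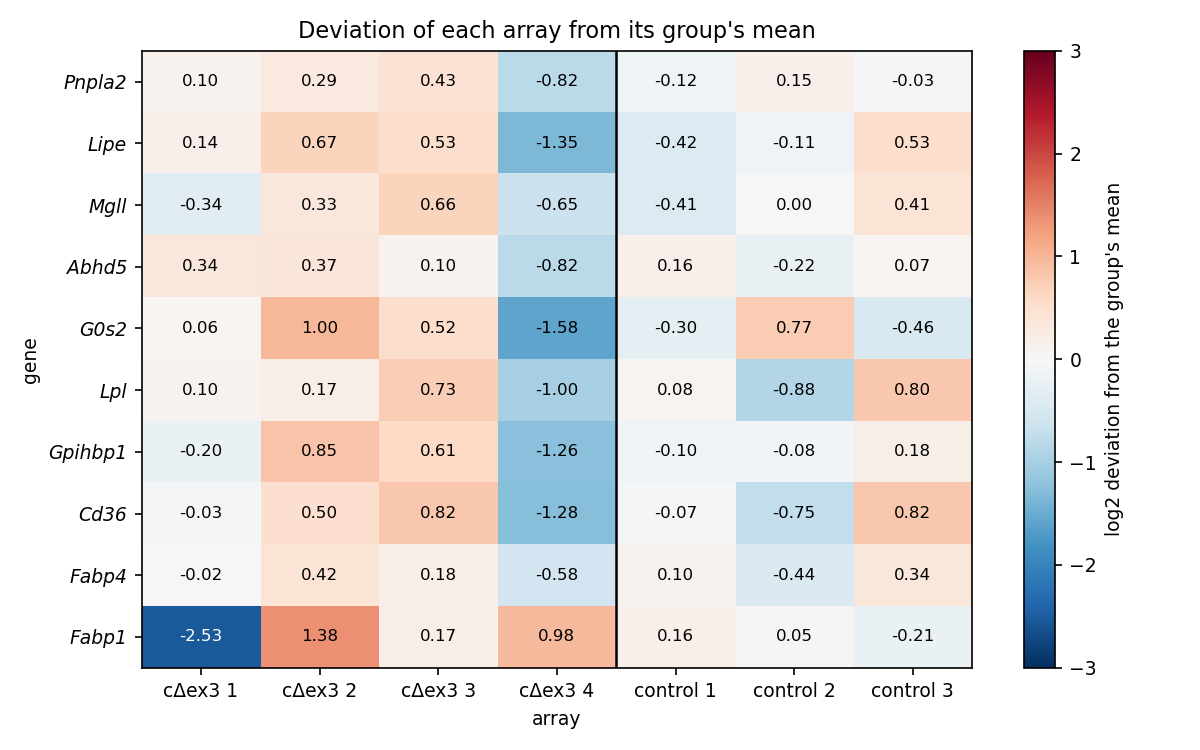
Deviation of each array (columns) from its group's mean for each gene (rows), in log2 units, red above and blue below the mean. The column of cΔex3 array 4 is blue for all genes but Fabp1, and the deepest cell is Fabp1 on cΔex3 array 1, at −2.53.

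Markers of several cell types also differed between groups and arrays, and their part in the results was not tested. Summed adipocyte markers were 905, 1092, 1049 and 519.6 times the 75th percentile on cΔex3 arrays 1 to 4, and 6.36, 8.47 and 34.8 times on control arrays 1 to 3. They were lowest on cΔex3 array 4 within their group and highest on control array 3 within theirs, as were Lipe, Mgll, Lpl, Gpihbp1, Cd36 and Fabp4. The order was not particular to adipocyte markers. Endothelial, macrophage, fibroblast and brown adipocyte sums were lowest and highest on these same arrays. Dermal sheath, hepatocyte, keratinocyte and striated muscle sums were not. All 9 adipocyte markers rose, with a median of 9.61, or 9.26 with the 2 genes not above background on any control array at their bound. Adipoq (adiponectin) rose by 11.43 ± 0.78 (SE; limma, adjusted p = 5.83e-05) and Retn (resistin) by 10.01 ± 0.41 (SE; limma, adjusted p = 9.73e-06). Summed endothelial markers were 113, 164, 157 and 68.5 times the 75th percentile on the cΔex3 arrays, against 62.7, 68.6 and 69.9 times on the control arrays. On cΔex3 array 4 this sum was within the control range. Yet 8 of the 10 markers lay higher on all 4 cΔex3 arrays than on any control array, and 1, Kdr, lay lower. Kdr was 3.35 on cΔex3 array 4, against 4.65 to 5.01 on the control arrays. Gpihbp1 was 3.49 on cΔex3 array 4, against at most 3.12 on a control array, and Lpl 6.30 against at most 2.98. Of the 10 endothelial markers 8 rose and 1 fell, with a median of 1.44. Pecam1 rose by 1.41 ± 0.37 (SE; limma, adjusted p = 0.0165) and Cdh5 by 1.37 ± 0.42 (SE; limma, adjusted p = 0.0306), calls that were lost without control array 1 for Pecam1 (1.28) and without any single array other than cΔex3 array 4 for Cdh5 (1.15 to 1.43).

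Hepatocyte markers stood beside Fabp1. Their sum was 10.1, 38.4, 21.1 and 33.3 times the 75th percentile on cΔex3 arrays 1 to 4 and 4281, 4712 and 3540 times on the control arrays. Array 1 was the lowest and array 2 the highest of the cΔex3 group for both the sum and Fabp1. All 10 hepatocyte markers fell, with a median of −8.41, and all were well above background on all 7 arrays. Alb (albumin) differed by −8.30 ± 0.76 (SE; limma, adjusted p = 0.000191) and Ttr (transthyretin) by −9.43 ± 0.85 (SE; limma, adjusted p = 0.000179). Macrophages, which also express Cd36, Fabp4 and Lpl, gave summed markers of 48.8 to 119 times the 75th percentile on the cΔex3 arrays and 128 to 204 times on the control arrays, with 1 of 10 markers higher and 3 lower. The 3 lower were Clec4f (−10.88 ± 0.93), Vsig4 (−4.91 ± 0.46) and Marco (−3.71 ± 0.92), and the higher one was Lyz2 (1.51 ± 0.47, errors are SE). Clec4f was above background on 2 of 4 cΔex3 arrays, so the size of its difference is uncertain. The other 6 did not pass the threshold, so the lower sum does not hold for the list as a whole. Among these 6, Adgre1 (F4/80) differed by −0.19 ± 0.42 (SE) and Cd68 by 0.80 ± 0.42 (SE). Cd68 was called higher in 6 of 21 other settings. The dermal sheath genes Acta2 and Tagln rose by 5.20 ± 0.37 and 1.01 ± 0.26 (SE; limma, adjusted p = 6.80e-05 and 0.0163), and 9 of 10 genes of that list rose. The Tagln call was lost without control array 1 (0.93) or control array 3 (0.96). Among fibroblast markers 8 of 10 rose, Cd34 among them, and 1 fell, Pdgfra by 2.48 ± 0.23 and Dpt by 4.03 ± 0.40 (SE; limma, adjusted p = 0.000191 and 0.000265).

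**Figure D4:**
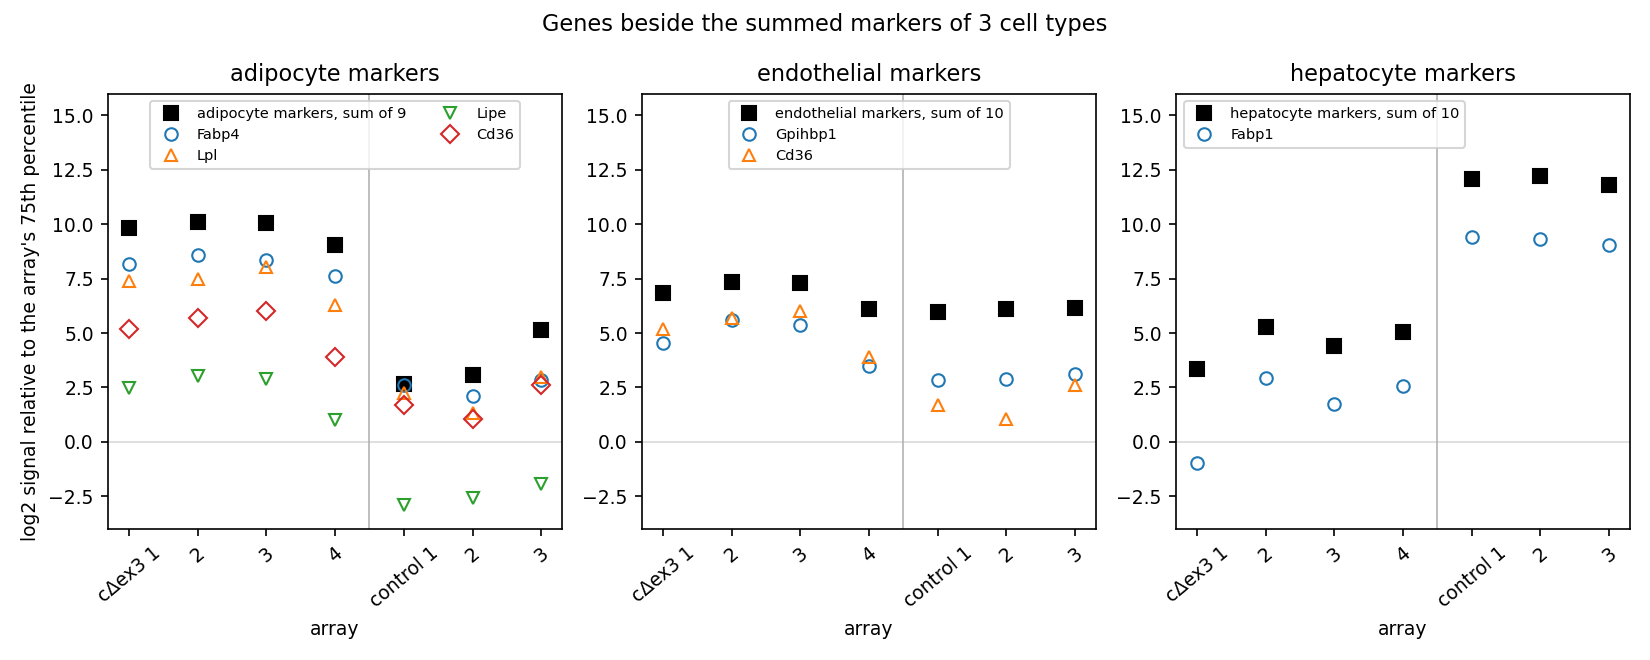
Summed markers of 3 cell types (black squares) beside genes of the set that such cells are known to express (open symbols), on cΔex3 arrays 1 to 4 and then control arrays 1 to 3; y axis, log2 signal relative to the array's 75th percentile. Adipocyte markers and Fabp4, Lpl, Lipe and Cd36 stand higher on all 4 cΔex3 arrays, and hepatocyte markers and Fabp1 higher on all 3 control arrays. The endothelial sum on cΔex3 array 4 (68.5 on the linear scale) lies within the control range. Singly, 8 of the 10 endothelial markers are higher on all 4 cΔex3 arrays than on any control array.

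The position that the file headers give each array on the slide puts both groups on each of 2 slide rows, with a single array in one group of each row, so the values within rows are descriptions. On row 1 (cΔex3 array 1 against control arrays 1 and 2) the differences were 2.07 for Pnpla2, 5.24 for Lipe, 0.88 for Mgll, 1.34 for Abhd5, −0.47 for G0s2, 5.62 for Lpl, 1.69 for Gpihbp1, 3.80 for Cd36, 5.81 for Fabp4 and −10.33 for Fabp1. On row 2 (cΔex3 arrays 2 to 4 against control array 3) they were 1.98, 4.26, 0.72, 0.78, 0.15, 4.28, 1.69, 2.62, 5.32 and −6.64 in the same order of genes. The sign differed between the rows for G0s2. With the row as a block, the difference was 1.69 for Gpihbp1 and 1.04 for Abhd5. The header's position differed from that in the file name on 4 of 7 arrays, so the rows themselves are uncertain.

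Other genes of the pathway, 105 tested of 108 listed, did not follow the 10 genes as a block. Of these 29 were higher and 39 lower on the cΔex3 arrays and 37 did not pass the threshold, with a median difference of −0.31, beside 24% higher, 29.1% lower and −0.08 over all genes tested. The lists were written with earlier results of these data known, and up to 4 genes with the smallest p are named from each. Adipocyte markers rose and hepatocyte markers fell on the cΔex3 arrays, as given above, and their part in these lists was not tested.

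Relatives of the lipases were mostly lower, 10 of 19, with 3 higher and a median of −0.85. Pnpla7, a lysophospholipase gene, differed by −3.68 ± 0.21. Pnpla1, an enzyme of skin barrier lipids, differed by −3.27 ± 0.32 and Abhd6, which cuts monoacylglycerols, by −2.33 ± 0.27. Dagla, which makes the endocannabinoid that Mgll degrades, rose by 2.40 ± 0.29. These 4 genes had adjusted p of 2.89e-05 to 0.000597 (limma; errors are SE), and their groups did not overlap.

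Regulators of lipases and coats of the droplet had 4 of 22 genes higher and 11 lower, with a median of −1.42. Plin1 (perilipin 1), the adipocyte droplet coat that holds Abhd5 until lipolysis is triggered, rose by 10.02 ± 0.40. Its level was 5.44, 5.59, 5.68 and 4.36 on the cΔex3 arrays and −5.14, −4.16 and −4.94 on the control arrays, with array 4 again the lowest of its group. The named genes that fell encode plasma apolipoproteins made by the liver that act on lipoprotein lipase. Apoc2, its activator, differed by −6.42 ± 0.38, Apoc3, an inhibitor, by −8.30 ± 0.39 and Apoa5, which enhances its action, by −7.70 ± 0.31. Adjusted p of the 4 genes lay between 9.29e-06 and 3.35e-05 (limma; errors are SE).

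Hormonal control of lipolysis was the list with the most genes higher, 14 of 26, with 2 lower and a median of 1.01, unchanged with 3 genes at their bound. Adrb3, the β3-adrenergic receptor through which catecholamines trigger lipolysis in mouse fat, rose by 5.71 ± 0.43. Its level was 6.72, 6.09, 6.76 and 5.21 on the cΔex3 arrays, against 0.49, 0.92 and 0.03 on the control arrays. Prkar2b, the regulatory subunit of protein kinase A that prevails in fat, rose by 7.87 ± 0.47. Npr3, the clearance receptor for natriuretic peptides, rose by 7.15 ± 0.56 and Ffar4, a receptor for long-chain fatty acids, by 4.39 ± 0.37. Adjusted p of the 4 genes lay between 3.34e-05 and 0.000137 (limma; errors are SE), and each was higher on 4 of 4 cΔex3 arrays.

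Genes of fatty acid transport and activation split, with 6 of 21 higher and 9 lower and a median of −1.01. Caveolae genes were among those higher: Cavin1 rose by 5.56 ± 0.39, and Cav1 (caveolin 1), above background on 2 of 3 control arrays, by 7.90 ± 0.56. The named transporters of the liver were lower, Slc27a5, a bile acid and fatty acid ligase, by a difference of −9.56 ± 0.69 and Slc27a2, a very long-chain fatty acid ligase, by −7.54 ± 0.59. Adjusted p of the 4 genes lay between 6.34e-05 and 0.000101 (limma; errors are SE).

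Among other fatty acid and retinoid binding proteins 1 of 11 was higher and 4 lower, with a median of −0.31. Fabp2, the intestinal form, differed by −9.09 ± 0.51, the brain form Fabp7 by −3.76 ± 0.59, and Rbp4, the plasma carrier of retinol, by −3.14 ± 0.42. Fabp9, known from testis and a close relative of Fabp4, was well above background on 4 of 4 cΔex3 arrays and 0 of 3 control arrays, at least 26.7-fold higher. Adjusted p of the 4 genes lay between 2.70e-05 and 0.00274 (limma; errors are SE), that of Fabp9 belonging to its fitted difference and not to the bound. The bound sets the cΔex3 mean against a floor averaged over the control arrays, which on each array is the lowest signal of any probe well above background, or the probe's own signal if that is higher.

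Glycerol, the other product of lipolysis, leaves adipocytes through Aqp7 and enters hepatocytes through Aqp9. Of 6 genes of glycerol handling 1 was higher and 3 lower, with a median of −1.06. Aqp7 rose by 1.75 ± 0.49 and Aqp9, above background on 2 of 4 cΔex3 arrays, differed by −6.16 ± 1.27. Gk (glycerol kinase) differed by −2.18 ± 0.68, with overlap between the groups, and Gpd2 (mitochondrial glycerol phosphate dehydrogenase) by −1.10 ± 0.22. Adjusted p of the 4 genes lay between 0.00532 and 0.0313 (limma; errors are SE). The Aqp7 call was lost without control array 1 (1.75), 2 (1.76) or 3 (1.74), and the Gk call without control array 2 (−2.18) or 3 (−1.87) or cΔex3 array 1 (−2.25), 2 (−1.98) or 3 (−1.76).

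**Figure D5:**
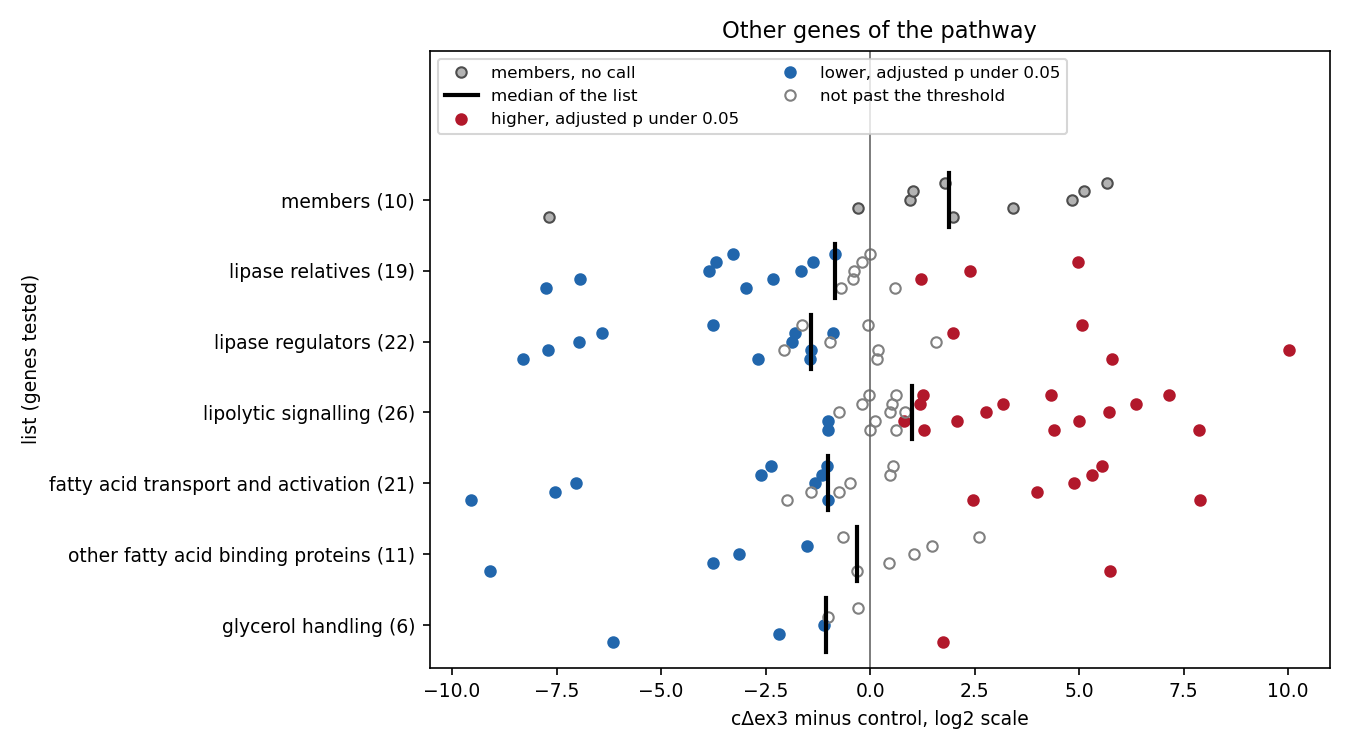
Difference of each tested gene, cΔex3 minus control, on the log2 scale (x axis), for the 10 genes (members, filled grey, with no call shown) and for the 6 lists of other pathway genes (y axis, genes tested in brackets); filled red, called higher; filled blue, called lower; open, not past the threshold; black bar, the list's median. Medians lie right of 0 for the 10 genes (1.89) and for lipolytic signalling (1.01) and left of it for the other 5 lists.

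Genes outside the set with the most similar profile were found for 5 of the 10, by the root mean square difference of gene-centred log2 values over the 7 arrays. For Pnpla2 they were Eln (elastin) at 0.079 and Man2a2, a Golgi mannosidase gene, at 0.122. For Lpl they were the motor gene Myo5a at 0.185 and Ltbp3, a TGF-β binding protein gene, at 0.231. Fabp4 was nearest to Gjc1, a gap junction gene, at 0.175 and Aebp1 at 0.178. G0s2 was nearest to Ghr (growth hormone receptor) at 0.259 and Dhrs3 at 0.293. Fabp1 was nearest to Mup20 at 0.186 and Mup2 at 0.249, major urinary protein genes of the liver. Many genes of that family are nearly identical, so a probe may read several of them. The genes nearest to Lpl and Fabp4 differed between groups by 4.95 to 5.84 and those nearest to Fabp1 by −7.57 and −7.72. These genes were chosen for their likeness and carry no test.

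The brightest genes of the set lay near the upper end of the scanner's range. Raw Fabp4 signal was 71.2%, 71.7%, 72.3% and 56.1% of the saturation value on the cΔex3 arrays and under 1% on the control arrays. Raw Fabp1 signal was 0.133% to 1.72% on the cΔex3 arrays and 66.3%, 66.1% and 66.7% on the control arrays. The brightest probe of any gene reached 73.1% to 98.8% of saturation on the cΔex3 arrays and 85.2% to 91.4% on the control arrays. Whether signals were compressed at this end of the range was not tested.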

How the data were processed

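Agilent Feature Extraction 10.7.1.1 read the scans, per the file headers. Its processed signal, a deposited intensity on a linear scale, is background-subtracted and not scaled between arrays. Raw median and local background intensity, also deposited, served the normexp alternative, because the mean signal planned for it is not used here. Deposited flags (other values, 0 or 1) marked outlier, saturated and well-above-background spots. A series-wide table of log2 values was deposited as well. Its making is not stated; it had column medians of 7.407 to 7.413 and a correlation of 0.9999 with the same array after normexp (offset 50) and quantile normalisation; its scale is therefore log2, its background offset is unknown, and it served as an alternative.

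The processed signal was log2-transformed and each array's 75th percentile subtracted. Control and outlier spots were left out and spots of a probe averaged, which left 55681 probes, 49 of them without a value on some array. Of these, 28026 were named through their accession and RefSeq's gene table (GRCm38.p6), and 201 of 202 genes of the lists were matched. A probe entered the test if 3 or more of the 7 arrays had it well above background (42463, of which 23759 were named), with the brightest per gene (18027 genes). Groups, taken from the sample titles, were compared with limma 3.58.1 under R 4.3.3 (lmFit and eBayes, two-sided, without covariates). The Benjamini-Hochberg adjustment ran over all genes, at a threshold of 0.05. The steps were tested on simulated data with 100 genes changed 2-fold and 100 changed 4-fold. Of these, 14 and 67 were recovered, with 6 false calls and 0 of the wrong sign. A gene not past the threshold may therefore still differ by such amounts. The simulation changed far fewer genes than were called here, so its rates may not hold for these data.

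The 10 genes and all lists were chosen with earlier results of these data known. Named were all 10, up to 4 genes of smallest p per pathway list, the first 2 genes per marker list and the 2 nearest profiles of 5 genes. Alternatives were other background correction, normalisation, filters, probe rules, blocks and subsets of arrays. Probe coordinates are left out, since the array layout was built on an older assembly.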

Additional observations from a re-analysis of the deposited data

How the results depend on the processing

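Over 21 other settings the difference ran from 1.61 to 3.09 for Pnpla2, 0.72 to 2.12 for Mgll, 0.76 to 2.07 for Abhd5, 1.16 to 2.90 for Gpihbp1 and 2.62 to 4.52 for Cd36. That of G0s2 ran from −1.29 with arrays of 1 mouse only to 0.81 without scaling. Counts of the 10 genes past the threshold, given below, are descriptions, since the genes were chosen with this comparison known. Without scaling between arrays the median of all genes was 1.02, so that 10083 genes were called higher and 1606 lower, with 6 lipase relatives, 8 regulators, 22 signalling genes and 3 other binding proteins higher, and 0 signalling, 4 transport and 1 glycerol gene lower. The median of all genes was 0.13 with quantile normalisation and −0.22 with normexp, and signalling genes called lower were 1 with quantile normalisation, with the deposited series values and with the mean of probes. Other binding proteins called higher were 3 with array weights and 2 with the deposited series values and within slide row 1. Slide row 2 alone, with 1 control array whose spread is taken from the cΔex3 arrays, gave 525 genes higher and 715 lower, 1 of the 10 genes higher, and for lipase relatives 0 higher and 2 lower, regulators 2 and 4, signalling 3 and 0, transport 2 and 2, other binding proteins 0 and 1, and glycerol genes 0 and 0. At an adjusted p under 0.05 by limma, glycerol genes were called higher 0 times and lower 0 times with arrays of 1 mouse only, where signalling had 9 higher, and 0 times higher with the slide row as a block, a setting chosen after seeing the data. Fewer arrays entered the row and 1-mouse settings; the causes of the other changes were not tested.

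Leaving out each array in turn gave 3243 to 4921 genes higher and 3996 to 5569 lower, 5 to 8 of the 10 genes higher and 1 lower, 3 to 4 lipase relatives higher and 9 to 11 lower, 4 to 5 regulators higher and 10 to 12 lower, 13 to 17 signalling genes higher and 1 to 3 lower, 6 to 7 transport genes higher and 7 to 11 lower, 1 to 2 other binding proteins higher and 4 to 5 lower, and 0 to 1 glycerol gene higher and 2 to 3 lower. The replicate numbers did not pair the arrays: same-numbered deviations correlated at 0.039, −0.0116 and −0.0115 across genes. With the number as a block, which drops cΔex3 array 4, 4493 of all genes tested were called higher and 4981 lower. Of the 10 genes 8 were higher and 1 lower, from which nothing is read, and 2 other binding proteins were higher. No named pathway or marker gene reversed its call in any setting run. Among named pathway genes calls were lost for Gk in 9 settings, Aqp7 in 6, Gpd2 in 4 and Aqp9 in 2. Those of Abhd6, Dagla, Rbp4, Fabp7, Fabp9 and Npr3 were lost in slide row 2 alone. Signal near background limits Fabp9 and the genes given as bounds.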

Other observations

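The genes below were chosen after their values were seen. Droplet coat genes of other tissues did not follow Plin1. Plin2, the coat found in most cells, was 4.49, 6.62, 6.21 and 3.16 on cΔex3 arrays 1 to 4 and 6.31, 6.88 and 7.05 on control arrays 1 to 3, and Plin5, the coat of oxidative tissues, was 2.15, 5.32, 4.62 and 2.27 on the cΔex3 arrays and 5.26, 6.14 and 5.58 on the control arrays. Neither passed the threshold (limma, adjusted p = 0.138 and 0.0745). Both were higher on cΔex3 arrays 2 and 3, which pool 2 mice each, than on arrays 1 and 4. The same order held for Fabp5, the epidermal fatty acid binding protein gene, at 5.03, 7.34, 7.14 and 3.79 on the cΔex3 arrays, against 4.34, 4.00 and 4.70 on the control arrays (limma, adjusted p = 0.194).

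Single arrays stood apart for a few genes of fat and muscle. Cidec, a droplet fusion gene of white fat and fatty liver, was 7.73, 8.15, 8.00 and 6.94 on the cΔex3 arrays, against 1.38, 0.92 and 5.63 on the control arrays, with control array 3 far above the others of its group. Cidea, its relative in brown fat, was 0.15, 3.22, 3.01 and −2.60 on the cΔex3 arrays and 0.49, −3.88 and 5.37 on the control arrays, where array 3 was again the highest. Fabp3, the muscle and heart form, was 0.00, 1.99, 0.41 and −0.47 on the cΔex3 arrays and 2.83, −3.07 and 0.31 on the control arrays. Summed striated muscle markers were 5.74 to 15.2 times the 75th percentile on the cΔex3 arrays, and 38.5, 0.239 and 0.386 times on control arrays 1 to 3, where array 1 was also the highest for Fabp3. Summed keratinocyte markers were 17.3 times the 75th percentile on cΔex3 array 4, against 5.85 to 6.99 times on the other cΔex3 arrays and 3.54 to 6.07 times on the control arrays. Array 4 is the one on which 9 of the 10 lipolysis and uptake genes were lowest within the cΔex3 group. Ucp1, the brown fat uncoupling protein gene, was above background on 4 of 4 cΔex3 arrays and 0 of 3 control arrays. It was at least 3.57-fold higher on the cΔex3 arrays (limma, adjusted p = 0.0108 for the fitted difference). Its call did not hold in 5 of 21 other settings, including normexp and the deposited series values. The other brown adipocyte markers did not rise with Ucp1. Elovl3, above background on 3 of 4 cΔex3 arrays, differed by −8.68 ± 1.13 (SE, adjusted p = 0.000841 by limma). Its groups did not overlap, and 4 of the 6 markers had no call. Summed brown adipocyte markers were 1.23 to 17.4 times the 75th percentile on the cΔex3 arrays. On the control arrays they were 9.88 to 47.5 times, so the ranges overlapped.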
